A study of Mus musculus with 8 samples.

Results

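Sod2-high and Sod2-low neutrophils were compared inside one population, the LPS-primed peripheral blood (PB) neutrophils of the batch numbered 6 in the authors' annotation, which does not say what a batch is. This population held 186 of the 1421 cells of the series, 95 on plate 1 and 91 on plate 2. Within each plate the cells were ranked by Sod2 UMIs over all UMIs of the cell and cut into 3 groups of near equal size. The top 31 and 30 cells are called Sod2-high here, the bottom 31 and 30 Sod2-low, and the rest middle. A UMI (unique molecular identifier) marks 1 captured transcript, so that amplified copies are counted once. Each cell was thinned at random to 5000 UMIs before genes were compared, Sod2 was left out of the comparison, and 766 of the other 10969 genes had at least 50 thinned UMIs on each plate. Of these, 382 (49.9%) had 1 direction on both plates, 192 higher (25.1%) and 190 lower (24.8%) in the Sod2-high cells, and 384 had opposite directions. The ranking used these cells, so all values of batch 6 are a description and carry no test.

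Neutrophils were isolated from PB and bone marrow (BM) of mice with a negative enrichment kit, picked singly by pipette and sequenced on plates by SCRB-seq, which tags each cell and each transcript. All mice were male, of the C57BL/6J background and 7 to 12 weeks old, and the labels name no mutation. LPS-primed mice had received 0.5 mg/kg LPS by intraperitoneal injection 4 h before, and PBS-primed mice received PBS. The labels call the PBS samples 0 h, whereas the methods describe a preparation 4 h after either injection. The names of the batch 6 cells give a group and a plate but no labelled sample, so that the plates are pooled cells and not replicates. The cells of batch 7 carry sample names, 91 in LPS-primed PB sample 1 and 86 in sample 2, and these 177 cells were used for the test because the ranking of batch 6 did not touch them. Nothing says whether the samples came from separate animals. The test of the Sod2 groups takes each sample as a block, so its p-values measure only how unevenly the groups differed between these samples. Those of LPS against PBS, without a block, measure only the spread between samples of a group. Either spread may be technical.

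Neutrophil markers such as S100a8, S100a9 and Csf3r took 2710 to 3200 of 10000 UMIs in every group of batch 6 cells, and the defining markers were all detected. Median depth was close between Sod2-low and Sod2-high cells of plate 1 (117374 and 126940 UMIs) and lower in the Sod2-low cells of plate 2 (69169 against 121148). The median ratio of ERCC spike-in RNA was 0.426 and 0.409 on plate 1 and 0.419 and 0.367 on plate 2. Hepatocyte markers were at 0.285 to 1.34 per 10000 UMIs in batch 6, where 12 of 20 measured markers had no UMI, and at 14.0 to 30.8 in batch 7, where all 20 were detected. T and NK cell markers were at 2.32 per 10000 in the Sod2-low and 0.182 in the Sod2-high cells of plate 2, and B cell markers at 0.805 and 4.91. Few cells carried these markers. A single Sod2-low cell held all 33 thinned UMIs of the T cell gene Cd3d. For the B cell genes H2-Aa, Cd79b and Cd74, a single Sod2-high cell held 87.5%, 83.3% and 64.0% of the group's UMIs. The plates shared 91 of 95 well barcodes, which are reused from plate to plate. The authors' clustering put 185 of the 186 batch 6 cells in 1 cluster, here called the LPS cluster, but only 84 of the 177 LPS-primed PB cells of batch 7.

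Sod2 encodes manganese superoxide dismutase, the enzyme of the mitochondrial matrix that turns superoxide into hydrogen peroxide. It is a well-known target of NF-kB and is induced in myeloid cells by bacterial products and inflammatory cytokines. Superoxide itself comes from the respiratory chain inside mitochondria and, in activated phagocytes, from the NADPH oxidase of the granule and plasma membranes. Other NF-kB targets, such as Nfkbia and Cxcl2, and genes of the interferon response, such as Ifit1, serve below as a comparison.

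The promoters of these 4 genes are shown because Sod2 ranked the cells and the other 3 stand for the NF-kB and interferon groups whose values are set against it. Capitals mark matches to the NF-kB consensus of 10 bases or to GAAANNGAAA, the core of the interferon-stimulated response element, on either strand. The sequences run from 250 bases before to 50 bases after the start, from RefSeq in the build GRCm38.p6. They lie at chr17:13007589-13007888 (Sod2, plus strand), chr12:55492598-55492897 (Nfkbia, minus strand), chr5:90903649-90903948 (Cxcl2, plus strand) and chr19:34640639-34640938 (Ifit1, plus strand).
Sod2: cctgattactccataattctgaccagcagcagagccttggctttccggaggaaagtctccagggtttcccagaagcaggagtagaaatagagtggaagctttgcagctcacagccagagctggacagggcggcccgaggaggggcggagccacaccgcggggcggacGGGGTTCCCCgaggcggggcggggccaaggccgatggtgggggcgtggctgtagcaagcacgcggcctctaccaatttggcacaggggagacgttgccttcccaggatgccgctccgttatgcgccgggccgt
Nfkbia: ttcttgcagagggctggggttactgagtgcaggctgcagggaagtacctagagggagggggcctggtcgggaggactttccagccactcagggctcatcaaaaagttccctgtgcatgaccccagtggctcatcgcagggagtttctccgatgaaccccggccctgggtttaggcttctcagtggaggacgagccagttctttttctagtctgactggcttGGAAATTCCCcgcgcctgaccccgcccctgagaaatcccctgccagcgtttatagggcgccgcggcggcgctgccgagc
Cxcl2: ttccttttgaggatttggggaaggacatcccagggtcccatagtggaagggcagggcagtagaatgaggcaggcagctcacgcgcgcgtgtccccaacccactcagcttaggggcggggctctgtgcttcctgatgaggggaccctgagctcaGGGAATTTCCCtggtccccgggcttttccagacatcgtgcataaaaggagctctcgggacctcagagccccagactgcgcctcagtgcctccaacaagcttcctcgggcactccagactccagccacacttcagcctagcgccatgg
Ifit1: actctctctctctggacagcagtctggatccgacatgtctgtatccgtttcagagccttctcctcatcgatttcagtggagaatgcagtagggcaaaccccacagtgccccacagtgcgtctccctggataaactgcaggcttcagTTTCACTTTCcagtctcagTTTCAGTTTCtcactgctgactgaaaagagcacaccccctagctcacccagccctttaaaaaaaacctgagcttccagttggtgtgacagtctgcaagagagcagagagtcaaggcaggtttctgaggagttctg
Sod2 held 1 NF-kB match, which began 83 bases before the start, and no interferon motif. Nfkbia held 1 NF-kB match at 29 bases before the start, and Cxcl2 a pair of overlapping matches at 97 and 96 bases before it. Ifit1 held 2 interferon motifs, at 104 and 85 bases before the start, and no NF-kB match. Of all 32851 promoters of the same length, 8.46% held an NF-kB match and 3.44% an interferon motif. A match is a description of the letters in this window and not a binding site.

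Sod2 itself spanned a wide range inside this population. On plate 1 the Sod2-low cells had 78.41 to 438.2 CPM of Sod2 (UMIs over the cell's total, times 1000000; median 261.4) and the Sod2-high cells 1176 to 3626 (median 1697). On plate 2 the Sod2-low cells had 0 to 192.3 (median 126.7) and the Sod2-high cells 1037 to 3045 (median 1630). The groups were cut at different levels, so that the Sod2-low cells of plate 1 reached into the range of the middle cells of plate 2, which had 193.4 to 1024. Few Sod2-low cells lacked the transcript. Of the 186 cells 1 had no Sod2 UMI, whereas 73 of 88 and 52 of 84 PBS-primed PB cells of the same batch had none. After thinning, 87.4% of the cells of plate 1 and 75.8% of those of plate 2 still had a Sod2 UMI, against 3.41% and 7.14% of the PBS-primed PB cells of the 2 plates. The log2 ratio of the mean level, high over low, was 3.37 ± 0.66 (SD over 2 plates), and the cut itself sets this value. Cells close to the cuts were common. On plate 1, 10 cells lay within 20% of the lower cut and 16 within 20% of the upper one, and on plate 2 there were 11 at each.

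**Figure D1:**
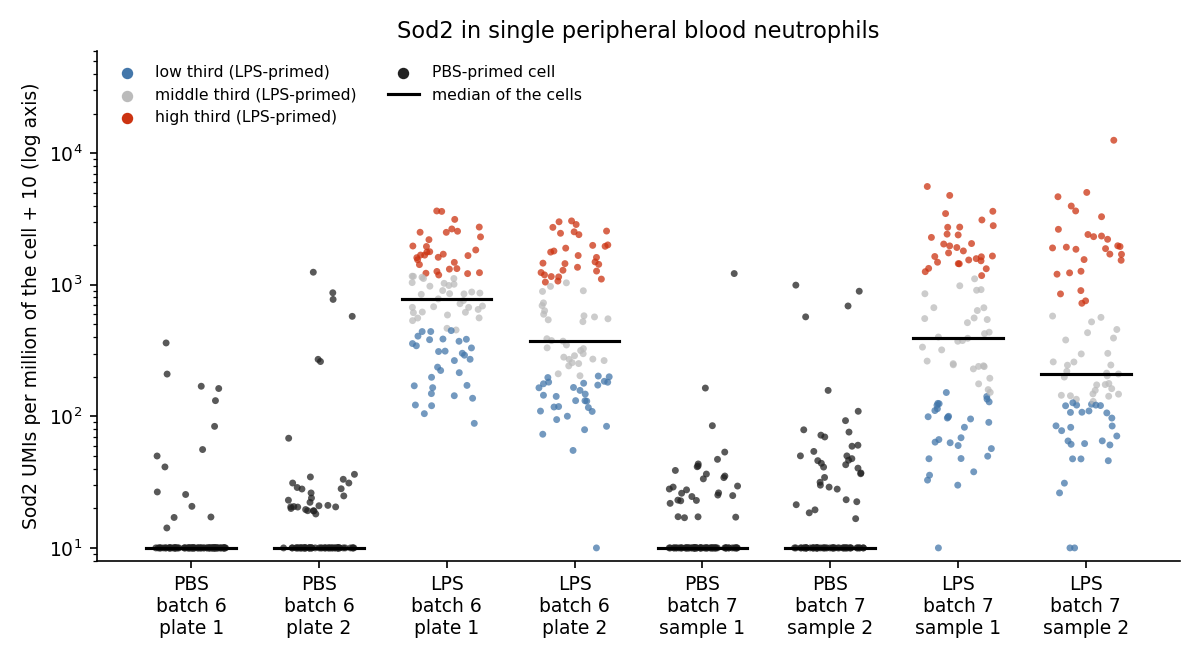
Sod2 CPM (log scale after adding 10) of each LPS-primed PB cell by plate of batch 6 and sample of batch 7, coloured by Sod2-low, middle and Sod2-high group, with PBS-primed PB cells beside them. LPS-primed cells of batch 6 had medians of 770.7 and 362.5, and the PBS-primed PB cells a median of 0.

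In batch 7 the same ranking gave Sod2-low cells with a mean of 72.89 and 68.38 CPM in samples 1 and 2 and Sod2-high cells with 2206 and 2489. The medians over all cells of the samples were 381.8 and 201.4, and the highest cells reached 5568 and 12520. The low groups of batch 7 therefore lay below those of batch 6, which had means of 257.5 and 125.3.

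Few genes went with Sod2 by a wide margin on both plates of batch 6. Among 766 genes, 12 (1.57%) were at least 2-fold higher and 6 (0.783%) at least 2-fold lower in the Sod2-high cells of both plates. Plate 1 alone had 112 genes past this fold and plate 2 had 219, and 25 genes passed it in opposite directions. Across the 766 genes the log2 ratios of the plates had a Pearson correlation of -0.0063, with SDs of 0.725 and 1.08. With the expected value of the thinning in place of a random draw it was -0.0061. Genes are not independent replicates, and this correlation is a description. The ratios of batch 7 samples 1 and 2 correlated at 0.47 over the same genes.

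**Figure D2:**
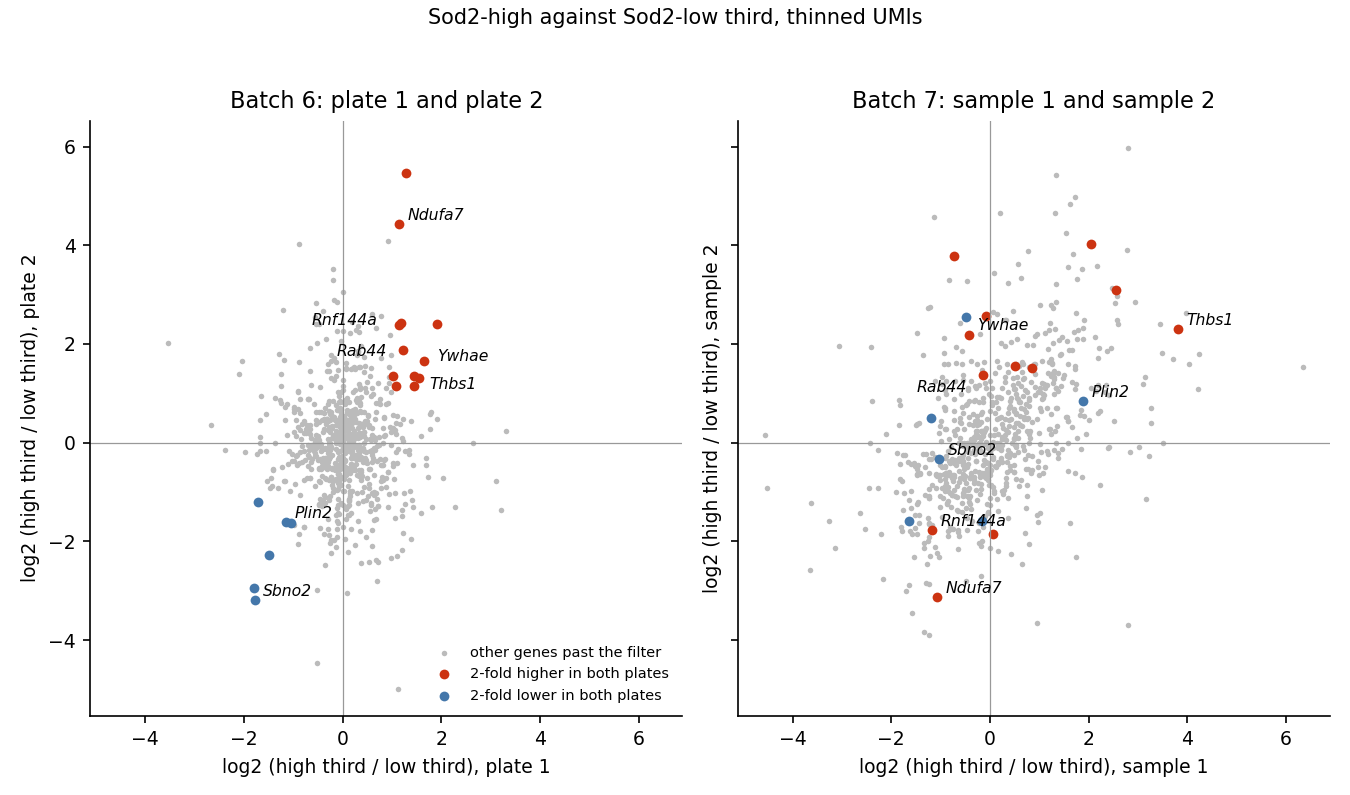
Log2 ratio of thinned UMIs, Sod2-high over Sod2-low cells, of each of 766 genes on plate 1 (x axis) against plate 2 (y axis) of batch 6, with genes past 2-fold on both plates marked. The 12 higher and 6 lower genes lie at the corners of a cloud whose correlation is -0.0063.

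Thbs1, which encodes thrombospondin 1, a secreted adhesive glycoprotein that binds matrix and cell surfaces, had the most UMIs of the 12 higher genes. Thbs1 lies at chr2:117937612-117952869 on the plus strand (mm9, GENCODE vM1). On plate 1 it had 127 thinned UMIs in the Sod2-low cells, 303 in the middle cells and 371 in the Sod2-high cells. On plate 2 it had 154, 227 and 380. The level was higher from each Sod2 group to the next on both plates, and the exact Poisson 95% intervals of the outer groups, which cover counting error only, did not overlap (106 to 151 against 334 to 411, and 131 to 180 against 343 to 420). The log2 ratios were 1.54 and 1.30, or 1.61 and 1.31 with the expected value of the thinning. The number of cells with a Thbs1 UMI was close on plate 1, 24 Sod2-low and 25 Sod2-high cells, and on plate 2 it was 17 and 25. Thbs1 passed 2-fold on both plates in 7 of 8 other settings (another random seed, the expected value of the thinning, no thinning, 2 or 4 equal groups, depth strata, cells of at least 20000 UMIs, and cells with few hepatocyte markers). Platelets store thrombospondin, and platelet markers were at 0.0247 and 0.0598 per 10000 UMIs in the low and high cells of plate 1 and at 2.16 and 0.165 on plate 2. Monocyte and macrophage markers were at 18.6 and 18.3 on plate 1 and 13.3 and 17.2 on plate 2, and the part of either in the result was not tested.

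The higher genes are given by the known roles of their products, which were read off after the genes were listed and were not tested as groups. Rab44, an unusually large Rab GTPase, had 18 and 43 thinned UMIs in the Sod2-low and Sod2-high cells of plate 1 and 19 and 71 on plate 2. Its middle cells held 50 and 39. Stxbp2, also known as Munc18-2, which serves granule exocytosis, had 6 and 24 on plate 1 and 7 and 39 on plate 2. For Rab44 the ratios held with the expected value of the thinning (log2 1.10 and 1.97), but Stxbp2 then came to 0.06 on plate 1 and 1.86 on plate 2. Snx10, an endosomal sorting nexin, had 7 and 20 and then 17 and 38, with log2 ratios of 0.87 and 0.62 at the expected value. Tmed5, a p24 protein of traffic from the endoplasmic reticulum to the Golgi, had 14 and 39 and then 11 and 29, with 1.27 and 1.53 at the expected value. Gas7, an actin-binding protein with an F-BAR domain, had 41 and 87 and then 17 and 38. Snap23, a SNARE protein of granule fusion, went the other way, with 37 and 11 on plate 1 and 26 and 11 on plate 2. One cell held 65.4% of the Snap23 UMIs of the Sod2-low cells of plate 2.

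The other 6 higher genes have varied roles. Ywhae, the phosphoserine-binding adaptor 14-3-3 epsilon, had 6 and 20 thinned UMIs on both plates, but its middle cells held more, 27 and 37. Prkd3, the kinase protein kinase D3, had 13 and 30 on plate 1 and 10 and 56 on plate 2, where 1 cell held 66.1% of the UMIs of the Sod2-high cells. Nod1, a cytosolic sensor of bacterial peptidoglycan, had 13 and 27 and then 11 and 29. Nod1 met the 2-fold limit in 0 of the 8 other settings, and its ratio at the expected value was 1.03 on plate 1 and 0.05 on plate 2. Rnf144a, a ubiquitin ligase, had 11 and 25 and then 5 and 28. It met the 2-fold limit in 2 of the 8 other settings and had 1 direction on both plates in 3 of them. Its plate 1 ratio at the expected value was 0.39. Ndufa7, a subunit of respiratory complex I, had 11 and 25 and then 2 and 53, and met the limit in 1 of the 8 settings. The uncharacterised gene 1810037I17Rik had 14 and 35 on plate 1, and on plate 2 it had 1 UMI (interval 0.0253 to 5.57) in the Sod2-low and 66 in the Sod2-high cells.

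Sbno2, a transcriptional co-regulator known from interleukin-10 signalling in macrophages, passed 2-fold in 6 of the 8 other settings, more than the other 5 lower genes (2 or 3). It had 77 thinned UMIs in the Sod2-low, 30 in the middle and 22 in the Sod2-high cells of plate 1, and 68, 56 and 7 on plate 2. Its log2 ratios were -1.78 and -3.19, and 1 cell held 49.4% of the UMIs of the Sod2-low cells of plate 1. Plin2, which coats lipid droplets, had 45 and 20 on plate 1 and 93 and 30 on plate 2, with more in the middle cells (57 and 106). Ifi27l2a, an interferon-induced gene with a related neighbour whose reads may be shared, had 98 and 47 and then 161 and 52. Mgst2, a microsomal glutathione transferase, had 29 and 8 and then 11 and 1, with more in the middle cells (35 and 45). One cell held 72.7% of the Mgst2 UMIs of the Sod2-low cells of plate 2, and the plate 2 ratio at the expected value of the thinning was -0.17. Rnf34, a ubiquitin ligase, had 32 and 11 and then 31 and 6. In all, the middle cells lay between the outer groups on both plates for 3 of the 12 higher and 2 of the 6 lower genes.

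**Figure D3:**
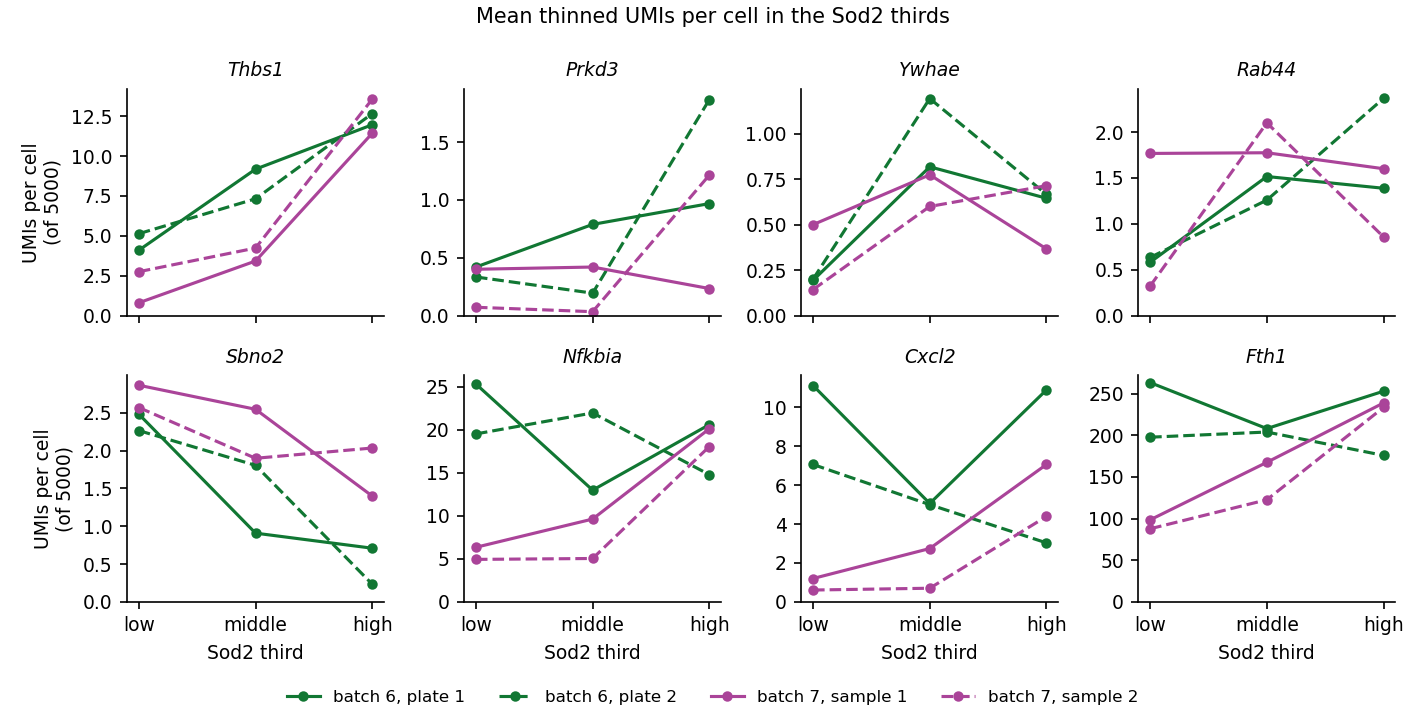
Mean thinned UMIs per cell of 8 genes in Sod2-low, middle and Sod2-high cells, 1 line for each plate of batch 6 and each sample of batch 7. Thbs1 climbs along all 4 lines, whereas Ywhae, Rab44 and Sbno2 follow the plates of batch 6 only in part, and Nfkbia, Cxcl2 and Fth1 climb in batch 7 only.

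The random draw of UMIs decided most of the membership. With the expected value of the thinning 10 genes were higher, 6 of them among the 12 (1810037I17Rik, Prkd3, Rab44, Thbs1, Tmed5 and Ywhae), and 1 was lower (Sbno2). With another random seed 12 were higher, 4 of them among the 12 (Prkd3, Thbs1, Tmed5 and Ywhae), and 2 were lower, Sbno2 among them. Just outside the fold lay Lpcat2, an acyltransferase of membrane lipids, with log2 ratios of 0.98 and 1.02, and just inside lay Nod1 with 1.03 and 1.36. Chil3, a chitinase-like secreted protein of neutrophils and macrophages that was picked out after its values were seen, had 426 and 819 on plate 1 and 513 and 1283 on plate 2. Its log2 ratios of 0.94 and 1.32 missed the fold in the main draw and reached 1.06 and 1.13 at the expected value. Slc11a1, a metal transporter of phagosomes, had 32 and 16 and then 49 and 15, and Bcl2l1, the survival protein Bcl-xL, had 71 and 39 and then 34 and 16. Both were lower in the Sod2-high cells of both plates by less than 2-fold on plate 1. At the expected value of the thinning the plate 1 log2 ratio of Slc11a1 was -0.22. A single cell held 43.7% of the Bcl2l1 UMIs of the Sod2-low cells of plate 1.

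No gene group with 3 or more members past the filter had a median beyond 0.5 in the same direction on both plates. The median log2 ratio over all 766 genes was 0.02 on plate 1 and -0.03 on plate 2, and 25.1% were higher and 24.8% lower on both. NF-kB feedback and signalling genes had a median of 0.62 on plate 1 and -0.54 on plate 2, with 4 of 14 higher and 2 lower on both plates. Chemokines had 0.43 and -0.79, with 0 of 5 higher and 1 lower on both. Nfkbia, the inhibitor IkB-alpha that NF-kB itself induces, had 784 and 638 thinned UMIs in the Sod2-low and Sod2-high cells of plate 1 and 585 and 443 on plate 2. A single cell held 45.9% of the Nfkbia UMIs of the Sod2-low cells of plate 1. Cxcl2, a neutrophil chemoattractant, had 345 and 338 and then 212 and 91, and a single cell held 55.4% of the 345. Ccl4, a macrophage inflammatory protein, had 64 and 559 on plate 1 and 364 and 211 on plate 2, which are opposite directions. A single cell held 85.9% of the 559 Ccl4 UMIs, and another held 55.5% of the 364. The interferon-stimulated genes were even, with 10 of 43 higher and 11 lower on both plates and medians of -0.03 and 0.02, or -0.01 and -0.19 at the expected value.

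Granule and oxidase genes had more members higher than lower on both plates. Of 18 genes of the specific and gelatinase granules, 10 were higher, 1 was lower and 7 were split, beside 25.1% higher among all genes. The medians were 0.20 and 0.37. Ltf, the iron-binding protein lactoferrin, had 505 and 621 thinned UMIs on plate 1 and 414 and 774 on plate 2. Camp, the cathelicidin precursor, had 624 and 847 and then 620 and 717, and Ngp, a granule protein of late precursors, had 2290 and 2750 and then 1617 and 2156. Mmp9, the gelatinase, was the member with less in the Sod2-high cells of both plates, 220 and 143 and then 199 and 192. Of 7 NADPH oxidase genes, 5 were higher (Cybb, Cyba, Ncf1, Ncf4 and Rac1) and Rac2 was lower. Cybb, the catalytic subunit gp91phox, is also among the 10 higher granule genes and had 390 and 417 and then 431 and 666. Cyba, its p22phox partner, had 254 and 313 and then 143 and 216. Most of these ratios were under 2-fold. On plate 2 Chil3, the granule protein olfactomedin 4, encoded by Olfm4 (38 and 108) and the small GTPase Rac1 (10 and 30) passed it, and on plate 1 none did. The depth of the plate 2 cells differed between the groups in the same direction, and its part in these counts was not tested.

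Of 10 class I antigen presentation genes 3 were higher, 7 lower and none split, with medians of -0.11 and -0.33, or -0.02 and -0.22 at the expected value of the thinning. B2m, the light chain of class I molecules, had 1158 and 1114 and then 1100 and 819, and its log2 ratio on plate 1 was -0.06 in the draw and 0.02 at the expected value. Counts in the other groups varied, and among all genes 25.1% were higher and 24.8% lower on both plates. Of 14 cytokine and receptor genes 2 were higher and 6 lower, with medians of -0.08 and -0.24, and of 17 immediate early and stress genes 1 was higher and 5 lower. Of 15 neutrophil identity genes 0 were higher and 3 lower, and of 7 survival and cell death genes 0 were higher and 3 lower, with medians of -0.20 and -1.06. At the expected value these medians were 0.02 and -0.88, and Casp8, one of the 3, had a ratio of 0.02 on plate 1. Of 17 respiratory chain genes 5 were higher and 3 lower, and of 10 genes of superoxide, peroxide and thiol defence 3 were higher (Prdx6, Glrx and Nfe2l2) and 2 lower. The counts of these 2 groups were close to the shares among all genes. Sod1, the cytosolic superoxide dismutase, had 0 or 1 thinned UMI in each group of batch 6 and could not be compared at this depth. Of 12 extracellular vesicle and tetraspanin genes 2 were higher and 1 lower, with medians of -0.02 and 0.09.

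**Figure D4:**
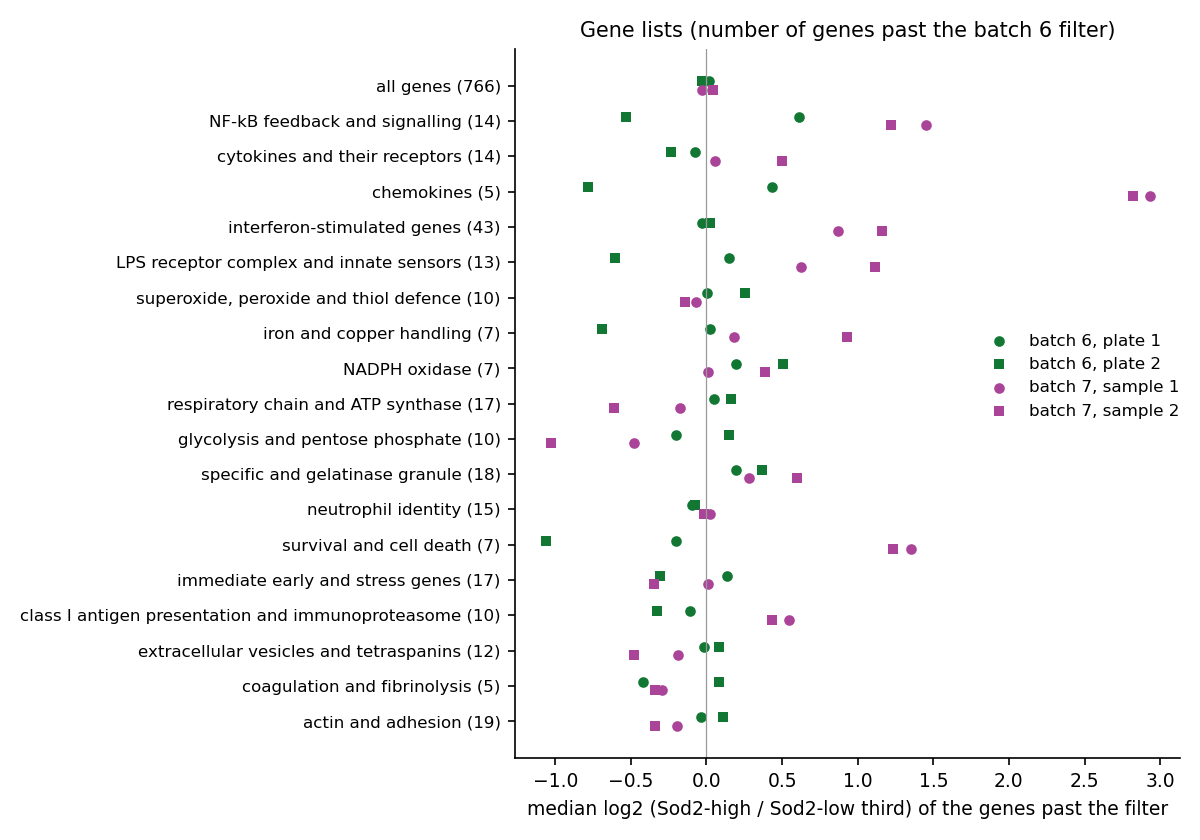
Median log2 ratio, Sod2-high over Sod2-low cells, of each gene group on plates 1 and 2 of batch 6 and in samples 1 and 2 of batch 7, over the genes past the batch 6 filter. Chemokines stood at 2.93 and 2.82 in batch 7 and at 0.43 and -0.79 in batch 6, and the NF-kB group at 1.45 and 1.22 against 0.62 and -0.54.

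The LPS-primed PB neutrophils of batch 7, which the batch 6 ranking did not use, gave a wider response. The chemokine genes Cxcl10 and Cxcl2, the NF-kB inhibitor Nfkbia, the interferon-stimulated genes Rsad2 and Ifit1, the ferritin gene Fth1 and the oxidase gene Cybb rose with Sod2, and the G-CSF receptor gene Csf3r, Fos and Gpx1 fell. With thinned UMIs summed per sample and group and the sample as a block, edgeR's quasi-likelihood test with Benjamini-Hochberg adjustment called 105 of 2068 genes, 73 higher (3.53%) and 32 lower (1.55%). Of the 73 higher genes 72 were among the 766 past the batch 6 filter. The 3.53% set beside the gene groups below therefore understates the share among genes with many UMIs. The random draw and the thinning mattered most for the lower genes. Another random seed gave 44 higher and 13 lower, with 54 of these 57 calls among the 105, and without thinning there were 32 higher and 9 lower. When counts were scaled to library size only, without TMM, 45 genes were higher and 44 lower, and the median over all tested genes moved from a log2 fold change of -0.11 to -0.36. With 6 sums and 2 residual degrees of freedom the test leans on the spread shared over genes. The depth and the quality of the cells moved with the groups. Median UMIs were 45965.5 in the Sod2-low and 74377.5 in the Sod2-high cells of sample 1, and 48771 and 76895.5 in sample 2. The ERCC ratio was 0.571 and 0.447, and 0.514 and 0.407, hepatocyte markers were at 23 and 18.0, and 23.2 and 14.0 per 10000 UMIs, and monocyte markers at 8.64 and 15.3, and 8.87 and 13.2. Their part in the result was not tested. When Sod2 was ranked inside 3 strata of depth, 38 genes were higher and 7 lower, 44 of these 45 among the 105.

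Of 7 chemokine genes tested 5 rose and 1 fell, beside 3.53% higher and 1.55% lower over all 2068 genes. Cxcl10, an interferon-induced attractant of T cells, had 90 and 689 thinned UMIs in the Sod2-low and Sod2-high cells of sample 1 and 79 and 571 in sample 2, a log2 fold change of 3.12 ± 0.29 (SE, adjusted p = 2.86e-08). Cxcl2 had 36 and 212 and then 17 and 123, which is 2.95 ± 0.46 (adjusted p = 0.000128). Ccl3 and Ccl4, which attract monocytes and other leukocytes, rose by 3.15 and 2.78, and Ccrl2, a non-signalling chemerin receptor, rose by 3.44. The Sod2-high cells stood above the Sod2-low cells in both samples for these 5 genes. The rise of Ccl4 differed between samples, with 20 and 383 and then 133 and 462, log2 ratios of 4.23 and 1.79. Ccl6, a CC chemokine of myeloid cells, fell from 199 to 68 and from 189 to 38.

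The NF-kB group had 3 of 21 tested members called, all higher, beside 3.53% higher over all genes. Nfkbia had 190 and 603 thinned UMIs in sample 1 and 138 and 505 in sample 2, a log2 fold change of 2.00 ± 0.28 (adjusted p = 3.06e-05). Tnfaip3, the ubiquitin-editing enzyme A20 that limits NF-kB signalling, had 21 and 66 and then 2 and 71, and rose by 3.34. Birc3, an inhibitor of apoptosis protein, rose by 2.14 with an adjusted p of 0.0498. Among the LPS receptor and sensor genes 5 of 16 rose and Clec7a, the beta-glucan receptor Dectin-1, fell from 189 to 27 and from 119 to 21. Cd14, the co-receptor that hands LPS to TLR4, had 57 and 211 and then 62 and 312, and rose by 2.36 ± 0.38 (adjusted p = 0.000128). The formyl peptide receptor Fpr2 rose by 1.65.

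Of 45 interferon-stimulated genes 14 rose and 1 fell, beside 3.53% and 1.55% over all genes. Rsad2, the antiviral enzyme viperin, had 400 and 1038 thinned UMIs in sample 1 and 358 and 951 in sample 2, a log2 fold change of 1.62 ± 0.22 (adjusted p = 2.3e-05). Ifit1, which binds foreign RNA, had 190 and 627 and then 189 and 559 and rose by 1.87. Ifitm1, a membrane protein that restricts virus entry, fell by 2.13 on the log2 scale, from 286 to 88 and from 520 to 64. Class I genes had 3 of 13 members higher, B2m, H2-K1 and Psme2, with a log2 fold change of 0.95 for B2m. The reads of H2-K1 may be shared with near-identical class I genes.

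Of 10 iron and copper handling genes 3 rose, Fth1, Lcn2 and Hp, and of 9 NADPH oxidase genes 2 rose, Cybb and Ncf1. Over all genes 3.53% rose. Fth1, the ferritin heavy chain, was among the most abundant of these, with 2952 and 7161 thinned UMIs in sample 1 and 2455 and 6534 in sample 2, a log2 fold change of 1.57 ± 0.14 (adjusted p = 2.21e-08). Lcn2, the siderophore-binding protein lipocalin 2, had 1314 and 3738 and then 1387 and 3562 and rose by 1.65. Cybb had 172 and 392 and then 102 and 380 and rose by 1.80, and Ncf1, the p47phox organiser, rose by 2.23. The other members tested in both groups were not called. In superoxide, peroxide and thiol defence 1 of 16 genes rose and 1 fell, beside 3.53% and 1.55% over all genes. A single call each way is close to that background. Prdx5, a peroxiredoxin of mitochondria and peroxisomes, had 201 and 496 and then 186 and 454 and rose by 1.52 (adjusted p = 0.000514). Gpx1, the glutathione peroxidase of cytosol and mitochondria, had 174 and 73 and then 148 and 37 and fell by 1.41 on the log2 scale (adjusted p = 0.0282). Acod1, the mitochondrial enzyme that makes itaconate, rose by 1.99. None of 46 respiratory chain genes, 16 glycolysis genes or 17 extracellular vesicle and tetraspanin genes was called.

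Granule genes had 6 of 18 members higher and none lower, beside 3.53% and 1.55% over all genes. Lcn2, Hp and Cybb are among these 6 and were also counted in the iron and oxidase groups above. Ngp had 148 and 1281 thinned UMIs in sample 1 and 581 and 1321 in sample 2, and rose by 2.09 ± 0.41 (adjusted p = 0.00152). Camp rose by 1.85. Single genes of other groups changed as well. AW112010, which is in none of the lists and is an interferon-responsive transcript, had 18 and 202 and then 22 and 119 and rose by 3.21. Casp8, the initiator caspase of death receptor signalling, had 11 and 68 and then 6 and 36 and rose by 2.81. Csf3r, the receptor of the neutrophil growth factor G-CSF, had 738 and 307 and then 592 and 204 and fell by 1.16 on the log2 scale (adjusted p = 0.0039). Fos, an immediate early transcription factor, had 170 and 29 and then 167 and 49 and fell by 1.93. Cd44, the hyaluronan receptor, had 266 and 92 and then 325 and 98 and fell by 1.41.

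Among the genes called in batch 7, the 8 with the lowest fold changes had few UMIs. Eif4ebp1, a repressor of cap-dependent translation, had 59 and 7 thinned UMIs in sample 1 and 91 and 6 in sample 2 and fell by 3.27 on the log2 scale (adjusted p = 0.00227). Ppp1r3d, a glycogen-targeting subunit of protein phosphatase 1, had 68 and 6 and then 62 and 3. Tagln2, an actin-binding protein, had 57 and 1 and then 26 and 2. Nsd1, a histone methyltransferase, had 45 UMIs in the Sod2-low and 0 in the Sod2-high cells of both samples together, which is at least 15.0-fold lower when set against a floor of 3 counts over both samples. Its middle cells held 4 and 29, so Nsd1 passed the count filter only through the groups where it was high, and this bound is a description. The others were Asb7, Clip1, St8sia4 and Tbc1d15, with 0 to 3 UMIs in the Sod2-high cells of each sample. Like Nsd1, the other 7 of these genes passed the count filter only through the groups where they were high. Their falls and calls are therefore a description as well. Among the 8 called genes with the highest fold changes were, beside Thbs1, Ccrl2, Tnfaip3 and AW112010, also Dach1, Dusp16, Fcgr2b and Ggh. The same limit holds for Dach1 and Ggh, which had 5 and 2 and then 2 and 0 UMIs in the Sod2-low cells of samples 1 and 2.

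The 18 genes of batch 6 were followed into these cells. Of the 12 higher genes 5 were higher in the Sod2-high cells of both samples of batch 7 and 2 were lower in both, beside 34.5% higher in both among all 766 genes. Their median log2 ratio was -0.01 in sample 1 and 1.87 in sample 2. Of the 6 lower genes 3 were lower in both samples and 1 was higher in both, beside 33.7% lower in both. Their medians were -0.76 and 0.08. The edgeR test called 2 of the 12 higher genes, Thbs1 and Gas7, beside 3.53% over all genes, and none of the 6 lower ones (at an unadjusted p under 0.05 there was 1 of them, Plin2, and it was higher). The 12 came from the 766 genes, which held 72 of the 73 higher calls, so 3.53% understates their background.

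Thbs1 had 24 thinned UMIs in the Sod2-low, 106 in the middle and 343 in the Sod2-high cells of sample 1, and 77, 127 and 380 in sample 2. Its log2 fold change was 3.18 ± 0.39 (SE, adjusted p = 3.02e-06 by edgeR). It was 2.52 without sample 1 and 4.12 without sample 2, which leave no test. The Sod2-high cells thus had the most Thbs1 on both plates and in both samples. Platelet markers were at 0.212 in the low and 1.75 per 10000 UMIs in the high cells of sample 1 and at 2.70 and 1.45 in sample 2, and their part in the result was not tested. Gas7 had 5 and 32 and then 4 and 38, a log2 fold change of 3.16 ± 0.95 (adjusted p = 0.0495). The Gas7 call was lost with 2 equal groups (0.18), in depth strata (0.114), in cells of at least 20000 UMIs (0.081), with library size alone (0.081), with limma-voom (0.122), with no filter (0.12) and without the middle cells (0.0602), where the values are adjusted p-values. The fold change was 2.13 with 2 equal groups and 2.91 to 3.21 in the other 6 settings. Inside the LPS cluster alone, with fewer cells and genes, Gas7 came to 0.75 (adjusted p = 0.924 by edgeR) and Thbs1 to 0.71 (adjusted p = 0.872). Rab44 had 53 and 48 in sample 1 and 9 and 24 in sample 2, which is no common direction. Ywhae had 15 and 11 and then 4 and 20, Prkd3 12 and 7 and then 2 and 34, and neither was called. Sbno2 had 86 and 42 and then 72 and 57, lower in both samples but not called (adjusted p = 0.715). Plin2 went against batch 6, with 12 and 46 and then 25 and 45, as did Ndufa7 with 30 and 14 and then 30 and 3 and Rnf144a with 39 and 17 and then 87 and 25.

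In the other direction, 72 of the 73 genes called higher in batch 7 passed the filter in batch 6. Of these, 22 were higher and 16 lower in the Sod2-high cells of both plates of batch 6, beside 25.1% and 24.8% of all genes, and 2 passed 2-fold, so that their shares lay close to the background. Of the 32 genes called lower 14 passed the filter, 5 were lower on both plates and none was higher on both. Fth1 had 8157 and 7837 thinned UMIs on plate 1 and 5928 and 5272 on plate 2, Lcn2 5641 and 5732 and then 4198 and 4122, and Cxcl10 248 and 335 and then 296 and 264. These genes differed little, or in opposite directions, between the Sod2 groups of batch 6.

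Position in the authors' clusters differed between the Sod2 groups of batch 7. In sample 1 the LPS cluster held 5 of 30 Sod2-low and 25 of 30 Sod2-high cells, and in sample 2 it held 3 of 28 and 27 of 28. Most of the other Sod2-low cells, 25 and 19, were in the cluster that also held 174 of 176 PBS-primed PB cells of batch 7. Cluster membership was made by the authors from the expression of these cells, Sod2 possibly included, and gets no test here. In batch 6 all 31 and 30 Sod2-low cells were in the LPS cluster.

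**Figure D5:**
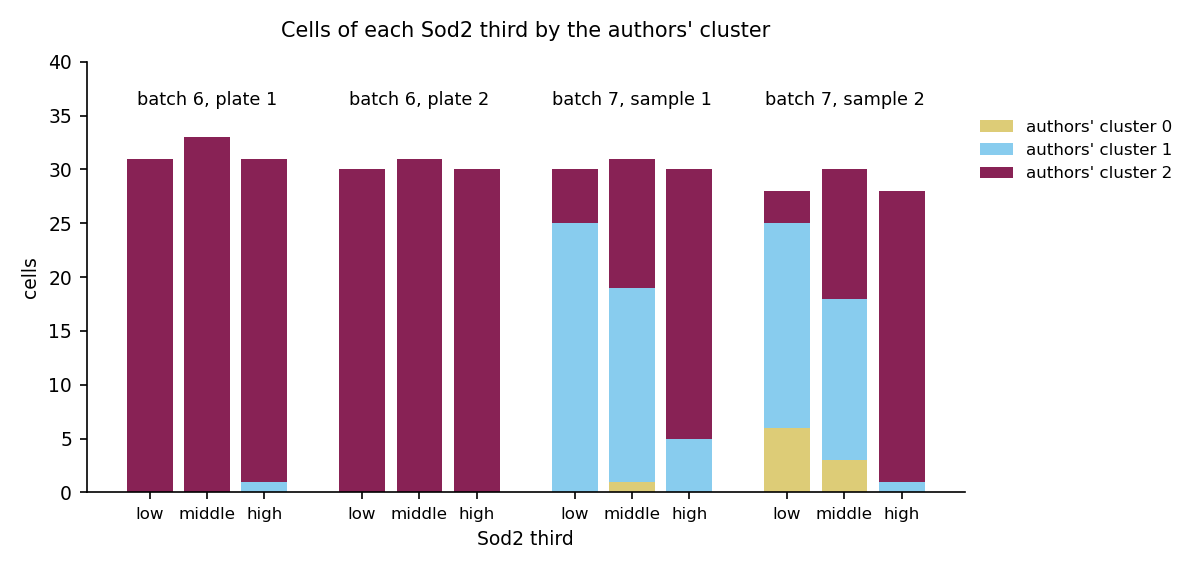
Cells of each Sod2 group in each of the authors' clusters, by plate of batch 6 and sample of batch 7. The LPS cluster held 185 of 186 cells of batch 6, but 5 of 30 and 3 of 28 Sod2-low cells of batch 7.

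When only the LPS cluster of batch 7 was ranked again by Sod2, 42 cells of each sample entered and each outer group had 14 cells. The edgeR test then called 0 of 1002 genes, and 56 had an unadjusted p under 0.05. Fewer cells and fewer genes were tested, so the counts cannot be set against each other directly. NF-kB and chemokine genes still lay higher. Of the 14 NF-kB genes 11 were higher in both samples and none lower, beside 26.9% higher and 22.6% lower among all 766 genes, with medians of 1.11 and 1.28. All 5 chemokine genes were higher in both samples, with medians of 2.16 and 1.76. Nfkbia had 188 and 412 thinned UMIs in sample 1 and 135 and 327 in sample 2 (log2 fold change 1.2, adjusted p = 0.42), and Cxcl10 had 131 and 587 and then 129 and 372 (1.86, adjusted p = 0.148). Interferon-stimulated genes no longer leaned either way, with 9 of 43 higher and 8 lower in both samples and medians of -0.13 and 0.19. Fth1 had 3550 and 3685 and then 2697 and 3451, and Lcn2 1777 and 2030 and then 1639 and 1779. Thbs1 had 56 and 150 and then 169 and 203 (log2 fold change 0.71, adjusted p = 0.872), and Gas7 had 16 and 19 and then 15 and 34 (0.75, adjusted p = 0.924). Over the 73 genes called higher the medians were 0.24 and 0.61, and 36 were higher in both samples, and over the 32 called lower they were -0.70 and -0.41, and 12 were lower in both. These genes had been chosen in the same cells, so the counts are a description only.

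Promoter motifs were counted for the same gene sets as a description, per gene. A gene with several promoters counted once if any of them held the motif. By this measure 9.55% of all 27025 genes with a promoter held an NF-kB match and 3.99% an interferon motif. A promoter was found for 61 of the 73 genes called higher in batch 7. Of these 61 genes 27.9% held an NF-kB match and 23% an interferon motif, against 13.1% and 7.06% of the 1658 tested genes with a promoter. Of the 27 genes called lower with a promoter 18.5% held the first and 3.7% the second. Of the 9 genes with a promoter among the 12 higher genes of batch 6, 0 held an NF-kB match and 1 an interferon motif. Of the 5 among the 6 lower genes 2 held an NF-kB match. These genes are too few for a comparison of shares.

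LPS-primed and PBS-primed PB neutrophils were compared for the 18 genes in the labelled samples of batch 7, 2 per group, in an edgeR fit over all 8 samples. TMM scaling sets the level here, since over all 8590 genes the median LPS effect (log2) was -0.12 with it and -1.03 with library size alone. Of the 18 genes 4 rose after LPS and 0 fell with TMM, and 2 were called with library size alone, Thbs1 and Gas7, beside 3.41% higher and 0.466% lower of all genes tested with TMM. Thbs1 had 1385 and 2406 CPM in the LPS-primed and 9.916 and 68.2 in the PBS-primed samples, a log2 fold change of 6.55 ± 0.80 (adjusted p = 0.000799). In batch 6 it had 2013 and 1732 on the LPS-primed and 234.8 and 43.9 on the PBS-primed plates, so that the groups did not overlap in either batch. Gas7 had 159.1 and 233.0 against 7.338 and 15.43 (5.04, adjusted p = 0.00177). Rab44 had 325.0 and 196.1 against 169.2 and 125.3, which is 1.72 (adjusted p = 0.032) with TMM and 0.82 (adjusted p = 0.251) with library size alone. Plin2 had 206.0 and 254.2 against 116.0 and 70.36, which is 2.22 (adjusted p = 0.0449) and 1.30 (adjusted p = 0.19). Only the calls of Thbs1 and Gas7 thus held under both scalings. Tmed5 (2.24, adjusted p = 0.0859), Nod1 (2.16, adjusted p = 0.0537) and Snx10 (2.88, adjusted p = 0.0858) missed the threshold. So did Mgst2 (3.72, adjusted p = 0.0637), which is among the lower genes of batch 6. Ywhae (0.31 with TMM and -0.60 with library size alone) and Sbno2 (1.01 and 0.10) were not called under either scaling. The LPS-primed samples here hold the same cells that were ranked by Sod2 in batch 7, so these values are not independent of that test. For genes called with Sod2 in batch 7, the LPS effect (log2, TMM) was 7.95 ± 0.63 for Cxcl10 (adjusted p = 3.96e-05), 3.42 ± 0.23 for Nfkbia, 3.02 ± 0.14 for Fth1 and 4.78 ± 0.50 for Rsad2, which all rose. Fos fell by 1.62 (adjusted p = 0.0469), and Csf3r (-0.32, adjusted p = 0.542) and Gpx1 (-0.29, adjusted p = 0.524) were not called.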

How the data were processed

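SCRB-seq of 1421 neutrophils was analysed, of which 186 LPS-primed PB cells of batch 6 were described and 177 of batch 7 tested. The authors trimmed reads with Cutadapt 1.15, aligned them to mm9 with STAR 2.6.0a, removed duplicates of uniquely mapped reads by UMI and counted genes with HTSeq 0.11.2. The deposited counts are UMIs per gene and cell, not normalized, of cells kept with more than 500 and fewer than 4000 genes and more than 5000 UMIs. The deposited annotation gives batch, plate, cluster and the ERCC ratio as a fraction with no stated denominator. No doublet caller was run, as the cells had been picked by pipette.

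Cells were ranked by Sod2 UMIs over total UMIs within a plate or sample, and thinned to 5000 UMIs without replacement. With at least 50 thinned UMIs on each plate, 0.5 was added to each sum and genes at least 2-fold apart in 1 direction on both plates were listed. Batch 7 sums (low, middle and high by 2 samples) were fitted with edgeR 4.0.16 in R 4.3.3 (filterByExpr, TMM, glmQLFit, glmQLFTest, sample as block, two-sided, Benjamini-Hochberg at 0.05). LPS against PBS used unthinned sums of the 8 labelled samples and no block. Each outer group held 155000 and 150000 thinned UMIs on the plates and 150000 and 140000 in the samples, so a gene with few UMIs is imprecise, and Poisson intervals cover counting error only. On simulated counts for the batch 7 comparison (1994 genes), edgeR recovered 44% of 100 genes changed 4-fold and 98% of 100 changed 16-fold, and called 0.223% of 1794 unchanged genes. The simulated spread between sums was set below that of the data, whose common dispersion was 0.3076. Genes with few UMIs were not among those changed, so these rates may be too favourable.

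The members and the gene lists were chosen with earlier results of these data known. Named genes are Sod2, the 12 largest rises and falls of batch 6 by the smaller ratio of the plates with no cell above 50% of the UMIs of the higher group, the 8 highest and lowest called genes of batch 7, and in each list the 3 most abundant members and those 2-fold apart. Some list members were added to these for their role. Fold limits, filters, cuts, thinning, depth strata, tools (DESeq2 1.42.0, limma 3.58.1) and omitted samples were varied. Promoters and motifs came from RefSeq tables of GRCm38.p6, used apart from mm9 coordinates.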

Additional observations from a re-analysis of the deposited data

Results flagged for a closer look

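Of 117 named genes, 15 went one way with Sod2 on both plates of batch 6 and the other way in both samples of batch 7. This is 12.8% of them, against 109 of 766 (14.2%) of the genes past the filter, so that the share lay no higher than the background. The difference between batches was not tested. The values are mean log2 ratios, Sod2-high over Sod2-low cells, first in batch 6 and then in batch 7. They were -0.24 and 0.73 for B2m, -0.53 and 2.53 for Casp8, -0.62 and 2.68 for Cxcl2, and -0.11 and 1.34 for Fth1. They were -0.36 and 0.97 for H2-K1, -0.03 and 0.88 for Ifitm3, -0.35 and 1.77 for Nfkbia, and -0.96 and 1.04 for Bcl2l1. On plate 1 a single cell held 55.4% of the Cxcl2, 45.9% of the Nfkbia and 43.7% of the Bcl2l1 UMIs of the Sod2-low cells, not always the same cell. Lyz2, which encodes lysozyme, had -0.2 and 0.29, Rac2 had -0.2 and 0.08, and the glycolytic gene Pkm had 0.15 and -0.77. Ppp1r3d had 0.94 and -3.78, with fewer thinned UMIs in batch 6 than the filter asks for. Plin2, among the lower genes of batch 6, had -1.38 and 1.36. Ndufa7 and Rnf144a, among the higher genes of batch 6, had 2.78 and -2.1, and 1.76 and -1.48. With the expected value of the thinning 11 of the 15 still had their direction on both plates. The exceptions were B2m (0.02 on plate 1), Casp8 (0.02), Cxcl2 (0.015) and Rac2 (0.04), and the batch 6 ratios of Fth1 and Ifitm3 were close to 0.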

How the results depend on the processing

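The batch 6 lists depended on the limits. The 12 higher genes became 2 with 2 equal groups per plate, 21 with 4, 69 at a minimum of 20 thinned UMIs, 2 at a minimum of 100, 35 at 1.5-fold and 2 at 3-fold, and 64 to 104 passed with 1 plate left out. The 6 lower genes became 2 with another random seed, 1 with the expected value of the thinning, 1 with 2 equal groups, 13 with 4, 14 with Sod2 ranked in depth strata, 37 at a minimum of 20, 3 at 100, 25 at 1.5-fold and 2 at 3-fold, and 48 to 115 passed with 1 plate left out. The 105 calls of batch 7 became 57 with another seed, 41 without thinning, 59 with 2 equal groups, 45 in depth strata and 0 in the LPS cluster, where fewer cells and genes were tested. They were 94 with DESeq2, 109 with limma-voom, 89 with library size alone and 81 with no replicate block. The 8 genes with their batch 6 direction in both samples of batch 7 became 5 in the LPS cluster and 2 at a minimum of 100, and 11 to 12 with 1 sample left out. The 4 of the 18 genes called after LPS became 2 with library size alone and 8 with DESeq2, 6 with a replicate block, and 3 to 7 with 1 sample left out, 7 without LPS-primed PB sample 1, where the lone sample is assumed to vary like the other groups. The Sod2 log2 ratio of 3.37 became 2.57 with 2 equal groups. In the LPS cluster of batch 7 the log2 fold changes of Casp8 (-0.60), Dach1 (-0.73), Ggh (-0.24), Ifitm3 (-0.012) and Il1r2 (-0.091) had the opposite sign, and in batch 6 the ratio of Nod1 was -0.027 with another seed and -0.283 without thinning. The cause was not tested. Of 1543 values of named genes in batch 7, 1292 kept their direction and, where a test was left, their side of the threshold. Another 161 lost the call and 9 gained one. Same-numbered PB samples did not deviate together (Pearson r = -0.018 over 8590 genes). With 2 samples per group this cannot show whether the numbers pair the samples, and the labels do not say. Leaving out a batch 7 sample leaves no residual degrees of freedom in the test of the Sod2 groups, which then gives values without a test. Leaving out cells with hepatocyte markers was not run in batch 7, where 13 of 91 and 10 of 86 cells would have remained.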
